A study of Homo sapiens with 18 samples.

Results

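SJSA cells that had been held under the CDK4/6 inhibitor PD0332991 (Palbociclib) for 30 h were compared with and without the MDM2 antagonist Nutlin in the last 6 h. The comparison took 6 of the 18 libraries of the series, chosen by their labels: 3 libraries of cells given 10 µM PD0332991 for 30 h (PD30) and 3 libraries of cells given the same PD0332991 treatment plus 20 µM Nutlin for 6 h (N+PD30). SJSA is an established osteosarcoma line that carries extra copies of both MDM2 and CDK4, so every library came from the same line. The response without PD0332991, in 3 libraries given only the solvent DMSO and 3 given 20 µM Nutlin for 6 h, was set beside it. All 4 groups were thus treated cultures of 1 line, with the amplified alleles in each of them. The question was what Nutlin does to the transcriptome of cells whose cycle has already been stopped by a CDK4/6 inhibitor.

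MDM2 binds the tumour suppressor p53, blocks its transactivation domain and marks it for degradation. Nutlin occupies the p53-binding pocket of MDM2 and so frees p53, which then binds its response elements and activates genes for cell cycle arrest, apoptosis, DNA repair and metabolism, along with MDM2 itself as negative feedback. CDK4 and CDK6 with D-type cyclins phosphorylate the retinoblastoma protein RB. When they are inhibited, RB holds E2F factors inactive and cells stop in G1, and the p53 target p21 (CDKN1A) acts on the same pathway by inhibiting cyclin-dependent kinases.

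The deposited values were read counts per gene, and levels are given below as CPM, the counts of a gene scaled to a common library size with TMM factors. Totals ran from 29035675 to 35963015 counts in the PD30 libraries and from 12704845 to 29762195 in the N+PD30 libraries, so the Nutlin-treated side was the shallower one. Replicates correlated at 0.994 or more within PD30 and at 0.985 or more within N+PD30 (Pearson, log2 CPM across genes). Of the osteoblast lineage markers, COL1A1, COL1A2, SPARC, ALPL and RUNX2 were detected, while the late markers SP7, IBSP and BGLAP were too low to be tested. Summed levels of the epithelial markers (185 to 237 CPM) and of the leukocyte and endothelial markers (35.4 to 45.9 CPM) had overlapping ranges in PD30 and N+PD30. The arrest itself was visible in the starting cells. The 44 listed S phase genes summed to between 5113 and 5370 CPM in DMSO and to between 392 and 459 CPM in PD30, and the 53 genes of G2 and mitosis to between 9845 and 10511 CPM in DMSO and to between 324 and 410 CPM in PD30. N+PD30 replicate 1, the shallowest library, stood apart from the other N+PD30 libraries in its summed cholesterol synthesis genes (4252 CPM against 7580 and 8228) and its summed reference genes (20577 CPM against 15842 and 13615). As these are bulk libraries, a change in the share of responding cells and a change per cell cannot be told apart, and fewer cells of a kind cannot be told from less RNA per cell. The study calls the libraries biological triplicates, and how their cultures were kept apart is not stated in the sources used here, so the p-values measure the spread between these libraries.

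Nutlin raised many more genes than it lowered in the arrested cells. A gene is called below when edgeR's quasi-likelihood test gave a Benjamini-Hochberg adjusted p under 0.05 and the log2 fold change of N+PD30 over PD30 was beyond 1. Of 15077 genes tested, 555 (3.68%) were called, 480 (3.18%) of them higher and 75 (0.497%) lower. With the adjusted p alone, 1333 (8.84%) were higher and 850 (5.64%) lower. The median log2 fold change of all tested genes was -0.0058. Groups that do not overlap were common among all tested genes, at 18.4% with the N+PD30 libraries higher and 18.9% with them lower, so separation alone is not a call. The size of the group of calls depended on single libraries, with 284 genes called higher when PD30 replicate 1 was left out and 34 called lower, against 125 called lower without N+PD30 replicate 3.

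**Figure D1:**
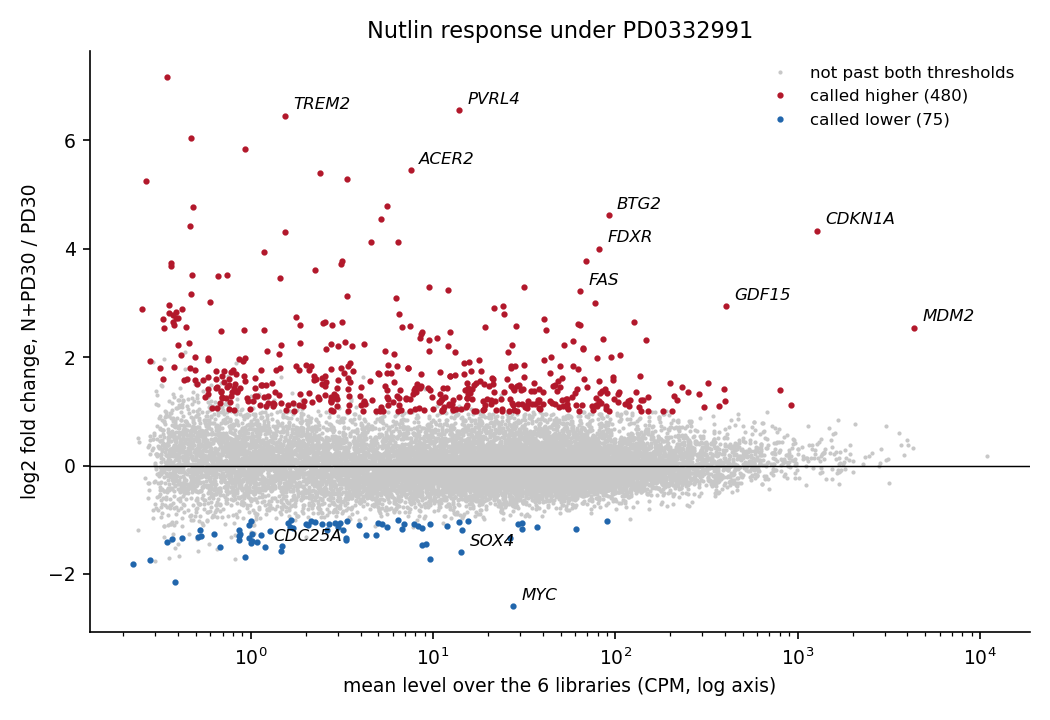
Log2 fold change of N+PD30 over PD30 (vertical axis) against the mean level over the 6 libraries in CPM (horizontal log axis), 1 point per gene. The 480 genes called higher (red) spread over the whole range of levels and reach a log2 fold change of 7.17, whereas the 75 called lower (blue) end at MYC at -2.59.

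The p53 lists held more calls than all genes did, and most calls lay outside them. Of 105 listed p53 targets and regulators, 101 were tested in the arrested cells, and 60 of them were called higher, where 3.18% of all tested genes were. By the adjusted p alone 75 of them rose. The median log2 fold change of the tested members was 1.2, beside -0.0058 over all tested genes. It was about the same in each Nutlin-treated library, at 1.16, 1.13 and 1.2 against the mean of the PD30 libraries. The lists hold genes known as p53 targets, chosen with results of these data already known, so their direction is no independent evidence.

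The 4 p53 targets that the study followed all rose. CDKN1A (p21, at 6:36644237-36655114 of GRCh37) stood at 123, 108 and 129 CPM in PD30 and at 2486, 2740.0 and 2065 CPM in N+PD30. The lowest Nutlin-treated library was thus far above the highest untreated one, and the log2 fold change was 4.34 ± 0.145 (SE, n = 3 per group; edgeR's quasi-likelihood test, adjusted p = 2.98e-06). MDM2 (12:69201957-69239324), which encodes the target of the drug and is amplified in this line, was already at 1197, 1116 and 1494 CPM in PD30 and reached 6545, 7937 and 7814 CPM. Its groups did not overlap either, with a log2 fold change of 2.55 ± 0.138 (edgeR's quasi-likelihood test, adjusted p = 2.72e-05). BBC3 (19:47724079-47736023), which encodes the pro-apoptotic BH3-only protein PUMA, went from 1.41, 2.08 and 3.42 CPM to 16.9, 23.4 and 25.1 CPM. TP53I3 (2:24300303-24308731), an oxidoreductase gene, went from 16.5, 20.7 and 14.2 CPM to 156, 148 and 109 CPM. Both pairs of groups were separate, at log2 fold changes of 3.24 ± 0.295 for BBC3 and 3.0 ± 0.188 for TP53I3 (edgeR's quasi-likelihood test, adjusted p = 4.07e-04 and 5.98e-05). Reads were counted per strand although the strandedness of the kit is not given in the sources used here, and exons of CDKN1A overlap those of DINOL, exons of MDM2 those of CPM, exons of BBC3 those of MIR3191 and exons of TP53I3 those of FAM228B on the opposite strand, so reads of these partners are not strictly separable.

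**Figure D2:**
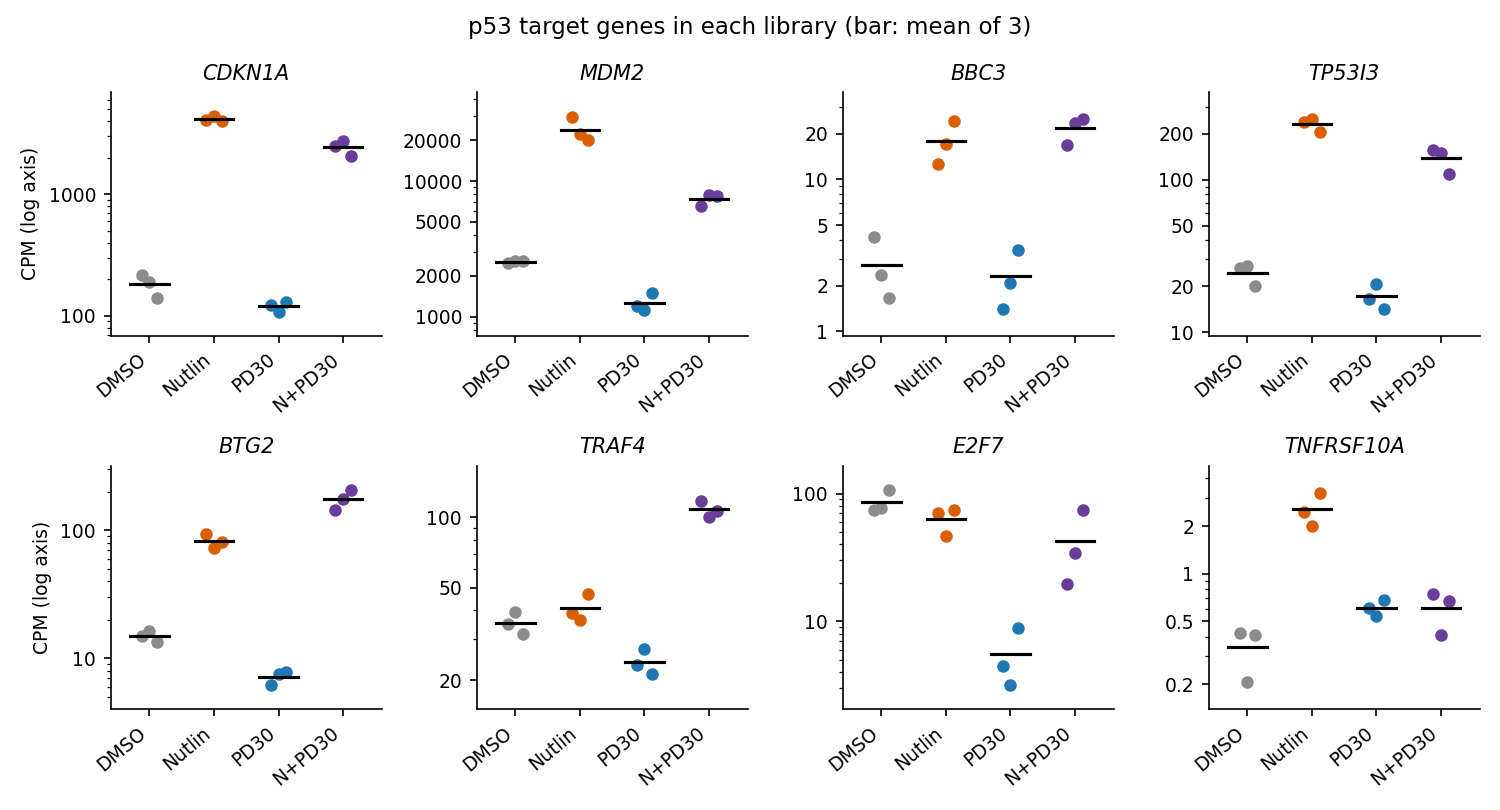
CPM (vertical log axis) of 8 p53 target genes in the 3 libraries of DMSO, Nutlin, PD30 and N+PD30, with 1 point per library and a bar at the group mean. The N+PD30 points lie above the PD30 points in every panel but that of TNFRSF10A, where the groups mix between 0.411 and 0.745 CPM.

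The genes of CDK4, RB1 and cyclin D1 did not pass edgeR's quasi-likelihood test. CDK4 stayed between 2086 and 2403 CPM in PD30 and between 2229 and 2368 CPM in N+PD30. RB1 ranged from 57.2 to 61.2 CPM in PD30 and from 47.4 to 67.9 CPM in N+PD30, and CCND1, the gene of cyclin D1, from 1268 to 1499 CPM and from 1209 to 1476 CPM. In all 3 of these genes the groups overlapped, and the signs of the CDK4 and RB1 differences turned with the scaling of the libraries. CDK6 fell by 0.51 on the log2 scale (adjusted p = 0.042), but it no longer passed the adjusted p in 5 of the 6 fits that left out 1 library, at up to 0.145 without PD30 replicate 3. RPLP0, a ribosomal protein gene that the study used as a reference, had a log2 fold change of 0.35 ± 0.171 (adjusted p = 0.193), which passed the test at 0.50 without N+PD30 replicate 3 (adjusted p = 0.0312).

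Among the feedback regulators of p53, 5 of 8 rose by the adjusted p and 4 were called higher. The phosphatase gene PPM1D (WIP1), which switches off the damage response, rose from 19.6, 19.5 and 21.9 CPM to 44.8, 45.2 and 49 CPM. TP53INP1, a nuclear cofactor and autophagy protein gene, went from 23.2, 19.9 and 41 CPM to 91.1, 130.3 and 205 CPM. PHLDA3, which restrains AKT, rose from 22.6, 27.1 and 23.9 CPM to 115, 110.3 and 101 CPM. In these 3 genes every Nutlin-treated library was above every untreated one (log2 fold changes 1.18 ± 0.102, 2.34 ± 0.341 and 2.14 ± 0.111; edgeR's quasi-likelihood test, adjusted p = 3.39e-04, 0.00500 and 2.00e-05). MDM4, the relative of MDM2 that Nutlin does not bind well, overlapped between the groups at 26.6 to 38 CPM and 25.8 to 35.9 CPM (adjusted p = 0.622).

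Of the 13 tested p53 targets in cell cycle arrest, 11 rose and 9 were called higher, and the median of 1.52 was the highest of the 6 p53 lists. BTG2, an antiproliferative adaptor of mRNA deadenylation, moved from 6.21, 7.49 and 7.79 CPM to 145, 177 and 208 CPM. Its log2 fold change was the largest of the list, ahead of CDKN1A (4.62 ± 0.167; edgeR's quasi-likelihood test, adjusted p = 2.98e-06). E2F7, an atypical E2F that represses E2F targets, stood at 4.48, 3.21 and 8.94 CPM in PD30 and at 19.5, 34.4 and 74.3 CPM in N+PD30. In both groups replicate 3 was the highest and the libraries spread widely, yet the groups were separate (2.95 ± 0.520, adjusted p = 0.0101), and without PD30 replicate 1 the adjusted p was 0.061. PLK3, FBXW7, SERTAD1, RBM38, GADD45A and ZMAT3 made up the other calls, with log2 fold changes between 1.33 and 1.86.

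The 22 tested targets in apoptosis had a median of 1.19, and 14 of them rose and 12 were called higher. FAS, the gene of the CD95 death receptor, was at 12.6, 12.1 and 12.7 CPM in PD30 and at 109.7, 116 and 122 CPM in N+PD30 (log2 fold change 3.21 ± 0.0991; edgeR's quasi-likelihood test, adjusted p = 2.42e-06). TNFRSF10B, the TRAIL receptor DR5, rose from 433, 411 and 473 CPM to 1128, 1133 and 1197 CPM (1.39 ± 0.0930, adjusted p = 8.24e-05). The other activating TRAIL receptor, TNFRSF10A (DR4), did not follow. Its levels were 0.608, 0.539 and 0.684 CPM in PD30 and 0.745, 0.411 and 0.673 CPM in N+PD30, and the groups overlapped (-0.08 ± 0.315, adjusted p = 0.887). TRAF4, a signalling adaptor, rose from 23.3, 27.4 and 21.4 CPM to 118, 100.03 and 107 CPM. APAF1, the core of the apoptosome, rose from 15.2, 14.6 and 16.4 CPM to 37.1, 41.2 and 49 CPM, and BAX, which permeabilizes the mitochondrial outer membrane, from 66.2, 75.6 and 72.6 CPM to 160.3, 181 and 152 CPM. PMAIP1 (NOXA) read 27.1, 31.7 and 63.2 CPM in PD30 and 45.8, 57.5 and 98.1 CPM in N+PD30, so the groups overlapped and it did not pass (0.73 ± 0.353, adjusted p = 0.188).

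Of the 9 genes in DNA repair, 5 were called higher with a list median of 1.35. POLH, a translesion DNA polymerase, was among the most uniform changes, from 18.6, 17.6 and 17.8 CPM to 106, 109 and 113 CPM (log2 fold change 2.60 ± 0.0939; edgeR's quasi-likelihood test, adjusted p = 2.98e-06). DDB2 and XPC, which recognise lesions for nucleotide excision repair, rose from between 10.0 and 14.1 CPM to between 65.5 and 75.6 CPM and from between 46.7 and 50.6 CPM to between 132 and 158 CPM. PCNA, the sliding clamp of DNA polymerases and an E2F target as well as a p53 target, moved from 30.9, 32.8 and 37.1 CPM to 107, 99.9 and 97.1 CPM (1.59 ± 0.103, adjusted p = 7.30e-05), and stayed below its DMSO level of 252 to 305 CPM.

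The 24 targets in metabolism, redox control and autophagy included 15 called higher and none called lower, with a median of 1.15. ACER2, a ceramidase of the Golgi, rose from 0.224, 0.324 and 0.438 CPM to 13, 14.1 and 17.3 CPM (log2 fold change 5.46 ± 0.240; edgeR's quasi-likelihood test, adjusted p = 1.00e-05). FDXR, which passes electrons to mitochondrial cytochrome P450 enzymes, went from 8.64, 10.2 and 9.9 CPM to 172, 159 and 131 CPM. SESN1 and SESN2, stress proteins that restrain mTORC1, went from between 7.82 and 10.8 CPM to between 118 and 135 CPM and from between 13.8 and 23.9 CPM to between 55.6 and 91.6 CPM. All of these groups were separate. C12orf5 (TIGAR), a phosphatase that lowers glycolytic flux, rose from 47, 43.2 and 56.7 CPM to 190.2, 237 and 310.3 CPM. DDIT4, another inhibitor of mTORC1, rose from 10.1, 12.1 and 15 CPM to 41.9, 44.6 and 45.9 CPM. VMP1, an autophagy gene, did not pass at 192 to 199 CPM in PD30 and 199.8 to 209 CPM in N+PD30 (0.05 ± 0.0838, adjusted p = 0.725), and its exons overlap MIR21 and PTRH2. SCO2, needed to assemble cytochrome c oxidase, was called at no more than 25 reads per library (adjusted p = 0.0251, up to 0.111 without N+PD30 replicate 2), and its exons overlap those of TYMP and NCAPH2. GPX1, a selenoprotein that reduces peroxides, was called with 116, 185 and 122 CPM against 466, 351 and 262 CPM (1.35 ± 0.241, adjusted p = 0.0108, or 0.0607 without PD30 replicate 1).

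Of 25 tested targets in secretion, cell surface and signalling 22 rose, 15 were called higher and none fell, with a median of 1.10. GDF15, a secreted stress cytokine of the TGF-β family, was at 69.9, 101 and 107 CPM in PD30 and at 828, 760.1 and 554 CPM in N+PD30 (log2 fold change 2.95 ± 0.205; edgeR's quasi-likelihood test, adjusted p = 9.83e-05). EDA2R, a receptor of the TNF receptor family, rose from 16.3, 13.5 and 22.5 CPM to 101, 102 and 116 CPM, and KITLG, the ligand of KIT, from 3.42, 2.59 and 2.11 CPM to 14.7, 15.3 and 13.6 CPM. CYFIP2 and VWCE were called at log2 fold changes of 2.64 and 2.65. SULF2, an extracellular sulfatase, EPS8L2, an actin regulator, NOTCH1 and EPHA2 were called at between 1.46 and 1.99. Rises that no longer passed the adjusted p when a single library was left out were few in the p53 lists beyond those given above. Those of CCNG1, PANK1 and CD82 did not pass without PD30 replicate 1 (adjusted p = 0.0536, 0.0534 and 0.0541), and those of SIVA1, RPS27L, PLK2, ABHD4, FUCA1, ULK1 and BAI1 in 2 to 5 of 6 such fits, at an adjusted p of at most 0.132, which was that of ABHD4.

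The promoters of the called genes were read for the p53 consensus, which consists of a pair of decamers each with a core of C, A or T, A or T, and G, because p53 binds its targets through it. RefSeq promoters (GRCh38.p14, 250 bases before to 50 after the start) were matched for 75.8% of all tested genes and 74.2% of the genes called higher, too few to compare shares. A site with no spacer, the C and G of both cores kept and at most 2 mismatches was found in 6 of the 356 matched promoters of genes called higher (1.69%), in 24 of 11428 of all tested genes (0.210%) and in 0 of 58 of genes called lower. A full match, for which a spacer between the decamers was allowed, was found in 3 of all promoters (0.0263%). Among them was that of PTCHD4, whose site has no spacer. A match describes letters only, and p53 also binds elements outside this window, as in CDKN1A and MDM2, whose known elements are farther off or in an intron. All 6 sites found in genes called higher are shown because p53 binds elements of this kind, on the strand of the gene and with the 4-base cores in capitals.
PTCHD4: aggCTTGcccagaCTTGccc
AEN: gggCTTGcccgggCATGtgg
GLS2: aggCTTGctggggCATGcgc
GPX1: gggCCAGaccagaCATGcct
SIGLEC14: ttaCAAGtctggaCAAGccc
C17orf89: gggCTTGtccctgCATGttt

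The PTCHD4 site (chr6:48111198-48111217, minus strand) began 20 bases before the start, that of AEN (chr15:88621306-88621325, plus strand) 34 bases before, and that of GPX1 (chr3:49358521-49358540, minus strand) 187 bases before. The GLS2 site (chr12:56488113-56488132, minus strand) began 29 bases after the start. The sites of SIGLEC14 (chr19:51647009-51647028, minus strand) and C17orf89 (chr17:81239855-81239874, plus strand) began 203 and 59 bases before it, and these genes were called at log2 fold changes of 1.45 and 1.13 (adjusted p = 0.0155 and 0.0247). Reads of SIGLEC14 are uncertain because part of it is nearly identical to SIGLEC5. PTCHD4, a patched-domain protein gene that can repress Hedgehog signalling, read 1.6, 0.997 and 2.68 CPM in PD30 and 12.7, 17.7 and 21.3 CPM in N+PD30 (log2 fold change 3.30 ± 0.334; edgeR's quasi-likelihood test, adjusted p = 7.73e-04). AEN, an exonuclease of apoptotic cells, rose from 38.7, 43.9 and 42 CPM to 174, 161 and 176 CPM (2.03 ± 0.0972, adjusted p = 1.47e-05). GLS2, a mitochondrial glutaminase, rose from 1.38, 1.24 and 1.45 CPM to 3.39, 2.71 and 3.8 CPM (1.27 ± 0.206, adjusted p = 0.00778). In PTCHD4, AEN and GLS2 the groups were separate.

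Both microRNA rows given here were chosen after their values were seen. The row of MIR34A, the precursor of the p53-induced miR-34a, held 2, 5 and 4 reads in PD30 and 14, 40 and 23 reads in N+PD30, and its groups did not overlap (log2 fold change 3.49 ± 0.341; edgeR's quasi-likelihood test, adjusted p = 6.14e-04). MIR17HG, the host of the MYC- and E2F-driven miR-17-92 cluster, held 40, 41 and 73 reads in PD30 and 1, 17 and 11 reads in N+PD30 (-1.69 ± 0.437, adjusted p = 0.0371). That call was lost in 5 of 6 fits without 1 library, at an adjusted p of up to 0.105 without PD30 replicate 3, and at 0.0528 after thinning. The MIR34A row covers the hairpin, which overlaps exons of MIR34AHG, and the MIR17HG row counts reads of a host transcript. The libraries were made from long RNA, so neither row measures mature microRNAs. The mature sequences (RefSeq, GRCh38.p14) are given with their seeds, bases 2 to 8, in capitals, because the seed sets which messages a microRNA pairs with.
hsa-miR-34a-5p: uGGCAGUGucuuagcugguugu
hsa-miR-17-5p: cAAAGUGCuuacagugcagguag
hsa-miR-20a-5p: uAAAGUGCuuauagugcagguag
hsa-miR-18a-5p: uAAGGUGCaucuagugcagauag
hsa-miR-19a-3p: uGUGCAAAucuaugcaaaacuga
hsa-miR-19b-3p: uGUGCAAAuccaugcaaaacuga
hsa-miR-92a-3p: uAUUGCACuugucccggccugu

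The miR-34a-5p sequence lies at chr1:9151735-9151756 on the minus strand, and the cluster runs on the plus strand of chromosome 13 from miR-17-5p at chr13:91350618-91350640 to miR-92a-3p at chr13:91351361-91351382. In the cluster, miR-17-5p and miR-20a-5p share the seed AAAGUGC and the miR-19 members share GUGCAAA. None of these seeds is that of miR-34a-5p.

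Several of the largest rises were in genes outside the fixed lists that were close to silent before Nutlin. PVRL4 (nectin-4, a cell adhesion protein) read 0.384, 0.216 and 0.273 CPM in PD30 and 29.5, 27 and 25.9 CPM in N+PD30, the largest log2 fold change among genes with a mean of at least 1 CPM and separate groups (6.55 ± 0.204; edgeR's quasi-likelihood test, adjusted p = 2.42e-06). TREM2, an immune receptor gene, had 1 read in each PD30 library and 68, 80 and 17 reads in N+PD30 (adjusted p = 0.00453), so its fold change is poorly bounded. CLCA2, a p53-responsive gene of epithelia, went from 0.128, 0.0809 and 0.109 CPM to 6.04, 4.76 and 3.32 CPM. In all 3 genes the Nutlin-treated libraries were above every untreated one. ZFPM1 (FOG1, a cofactor of GATA factors), GPR172B (a riboflavin transporter), WDR63 (a dynein intermediate chain) and FAM196A followed, with levels of at most 0.480 CPM in PD30 and 2.65 to 14.2 CPM in N+PD30.

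The genes that fell were led by MYC, the growth transcription factor. It read 38.5, 47.6 and 55 CPM in PD30 and 7.2, 7.34 and 8.84 CPM in N+PD30, so the groups were far apart (log2 fold change -2.59 ± 0.160; edgeR's quasi-likelihood test, adjusted p = 5.65e-05). Its exons overlap CASC11 on the opposite strand. SOX4, a developmental transcription factor, fell from 18.7, 22.5 and 23.1 CPM to 7.03, 7.44 and 6.82 CPM, and SERTAD4 from 14.1, 14.7 and 15.4 CPM to 4.14, 4.73 and 4.52 CPM. PPARGC1B, a coactivator of mitochondrial genes, fell from 12.1, 12.4 and 13.6 CPM to 4.39, 4.11 and 5.33 CPM, and SLITRK5, a neuronal membrane protein gene, from 14, 12.9 and 13.5 CPM to 4.97, 4.8 and 5 CPM. These 4 falls had log2 fold changes between -1.72 and -1.46 (edgeR's quasi-likelihood test, adjusted p of at most 7.93e-04). The zinc finger genes ZNF107 and ZIK1 and the centrosomal gene CCDC138 fell by 1.48, 1.43 and 1.41 from levels of 1.29 to 2.52 CPM, and lost the call in 2, 5 and 1 of the 6 fits without 1 library, at an adjusted p of up to 0.0669, 0.134 and 0.0663 without N+PD30 replicate 2.

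MYC also headed the list of MYC and ribosome biogenesis genes, in which 15 of 25 genes fell by the adjusted p, 1 of them past both thresholds, and none rose, where 5.64% of all tested genes fell. The list median was -0.47. NOP56, of the box C/D snoRNPs, fell from a mean of 128 to 73.9 CPM (log2 fold change -0.80 ± 0.112, adjusted p = 0.00429), DKC1, of the box H/ACA snoRNPs, from 89.8 to 58.0 CPM (-0.63 ± 0.0905, adjusted p = 0.00461) and NCL, nucleolin, from 713 to 561 CPM (-0.35 ± 0.0946, adjusted p = 0.0427). The remaining members that fell were UTP20, NIP7, NOP58, RRN3, NOP16, POLR1B, GNL3, NOLC1, NOP2, WDR12 and UBTF.

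**Figure D3:**
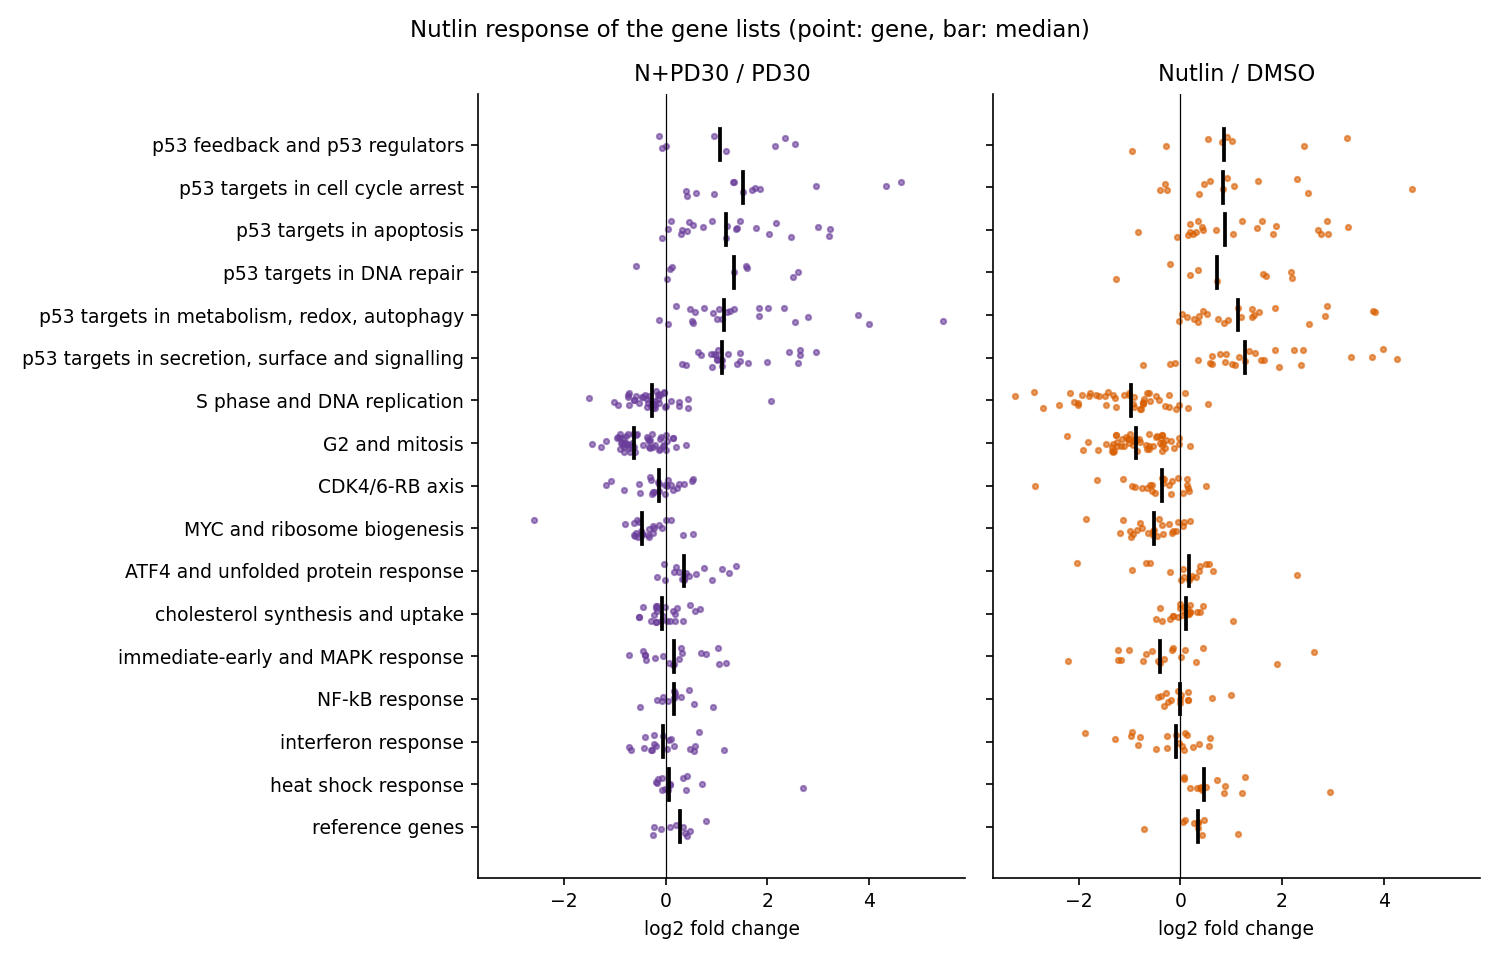
Log2 fold changes of the tested members of 17 gene lists, 1 point per gene and a bar at the list median, for N+PD30 over PD30 (left) and Nutlin over DMSO (right). The p53 lists lie right of 0 in both panels, with medians of 1.07 to 1.52 on the left, whereas the S phase list has its median at -0.27 on the left and at -0.96 on the right.

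Cell cycle genes stood at low levels in the arrested cells, and a minority passed the test for a change on Nutlin. Of 43 tested S phase and replication genes, 6 fell and 1 rose by the adjusted p, with a median of -0.27, and with the replicate block 10 fell and 3 rose. By the adjusted p 5.64% of all tested genes fell and 8.84% rose. CDC25A, the phosphatase that activates CDK2, fell from 2.3, 1.4 and 1.53 CPM to 0.828, 0.514 and 0.577 CPM (log2 fold change -1.51 ± 0.316; edgeR's quasi-likelihood test, adjusted p = 0.0187). CCNE1, cyclin E1, fell from 3.52, 5.55 and 4.35 CPM to 2.9, 2.13 and 1.78 CPM (-1.02 ± 0.246, adjusted p = 0.0299). The groups of both genes were separate, at levels far under those in DMSO of 33.2 to 38.8 CPM for CDC25A and 19.9 to 21.6 CPM for CCNE1, and both genes lost the call after thinning to equal depth (adjusted p = 0.0915 and 0.0741) and without N+PD30 replicate 2 (0.0962 and 0.118). Of the 6 fits without 1 library, CDC25A lost the call in 2 and CCNE1 in 4. RFC3, CDC7, SLBP and MCM3 were the other genes that fell. TYMS, thymidylate synthase, rose from 2.69, 2.37 and 2 CPM to 9.68, 10.8 and 9.04 CPM (2.06 ± 0.172, adjusted p = 2.72e-04), and its exons overlap ENOSF1 on the opposite strand.

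The list of G2 and mitosis had 53 tested genes, of which 9 fell and none rose, and 2 were called lower. Of all tested genes 5.64% fell by the adjusted p and 0.497% were called lower. The median was -0.63. With the replicate block 19 fell, and 18 fell in DESeq2. The centromere protein gene CENPF went from 12.6, 7.2 and 8.4 CPM to 3.06, 5.14 and 3.99 CPM, and the condensin subunit gene NCAPH from 2.02, 1.75 and 1.18 CPM to 0.331, 0.72 and 0.865 CPM (log2 fold changes -1.18 ± 0.262 and -1.28 ± 0.344; edgeR's quasi-likelihood test, adjusted p = 0.0234 and 0.0423). They lost the call in 3 and 4 of the 6 fits without 1 library, both without PD30 replicate 1 (0.0763 and 0.142). ASPM, a spindle pole gene outside the list, fell from 2.78, 2.26 and 1.56 CPM to 0.745, 0.823 and 0.625 CPM (-1.58 ± 0.298, adjusted p = 0.0134, and 0.0570 without N+PD30 replicate 2). KIF23, CCNB1, AURKA, TPX2, CENPE, ECT2 and RACGAP1 also fell, CCNB1 from a mean of 11.6 to 7.41 CPM where DMSO had 304 CPM. In the CDK4/6-RB axis, E2F5, RBL1 and CDK6 fell and the INK4 inhibitor genes CDKN2A and CDKN2B rose among 24 genes (7 fell with the replicate block), where 5.64% of all tested genes fell and 8.84% rose. E2F5 fell from 6.56, 7.33 and 7.38 CPM to 3.23, 3.6 and 3.27 CPM (-1.07 ± 0.146, adjusted p = 0.00383), its exons overlapping RBIS.

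**Figure D4:**
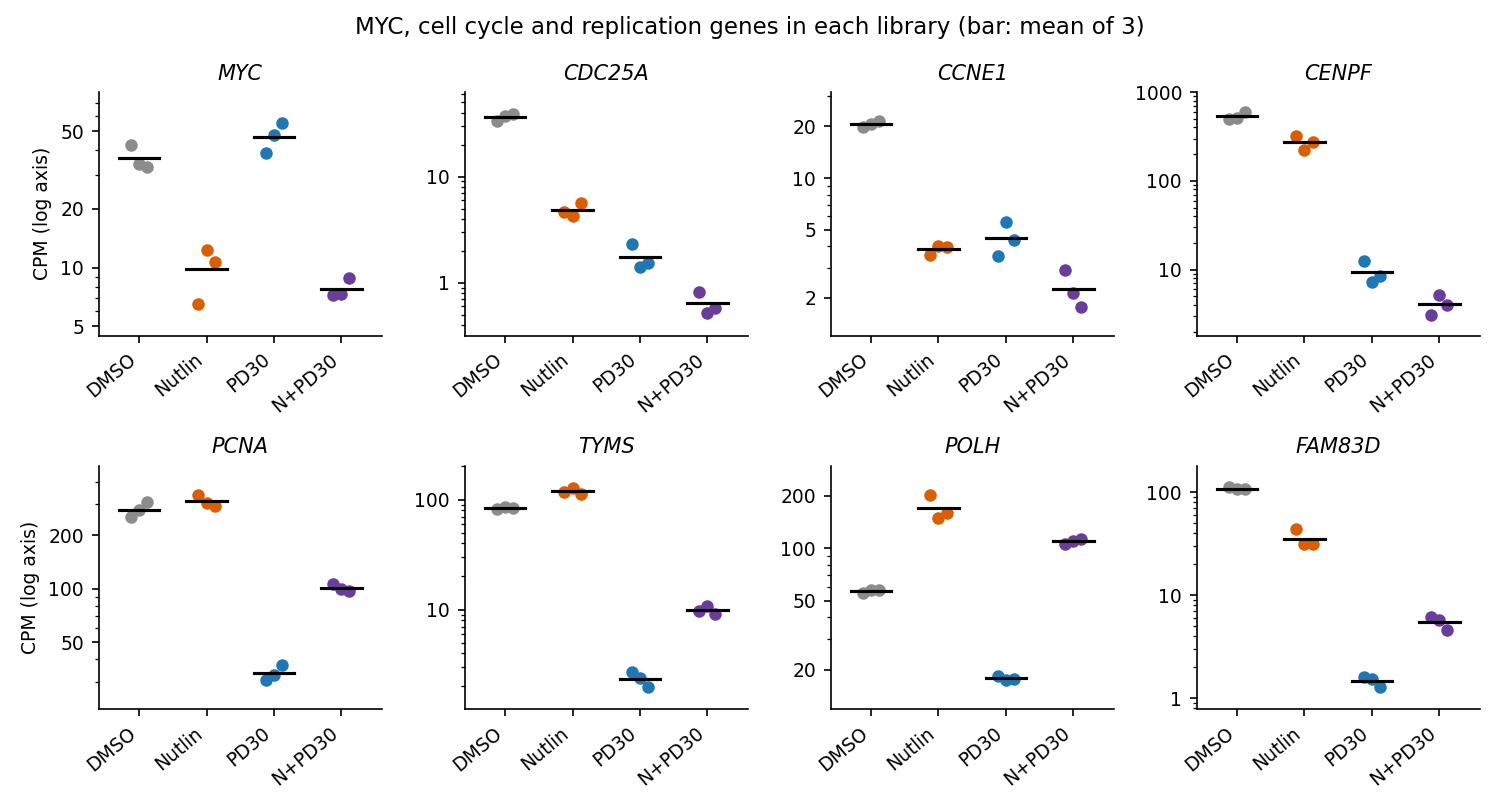
CPM (vertical log axis) of MYC and 7 cell cycle or replication genes in the 3 libraries of DMSO, Nutlin, PD30 and N+PD30, with 1 point per library and a bar at the group mean. CDC25A, CCNE1 and CENPF are low in PD30 and lower in N+PD30, whereas PCNA, TYMS, POLH and FAM83D are higher in N+PD30 than in PD30.

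Stress and signalling lists showed smaller shifts. Over all tested genes 8.84% rose and 5.64% fell by the adjusted p. The counts of the immediate-early, interferon and cholesterol lists below lie near these shares. Of 18 genes of the ATF4 and unfolded protein response, 6 rose, 2 of them past both thresholds, and none fell, with a median of 0.36 (12 rose with the replicate block). NUPR1, a chromatin-binding stress protein gene, rose from a mean of 121 to 226 CPM (log2 fold change 0.90 ± 0.119; edgeR's quasi-likelihood test, adjusted p = 0.00313) and HSPA5, the chaperone BiP, from 996 to 1306 CPM (0.39 ± 0.0890, adjusted p = 0.0257), and HERPUD1 and CEBPB rose as well. The calls of ATF3 and SDF2L1 (adjusted p = 0.0257 and 0.0486) were lost in 3 and 5 of the 6 fits without 1 library, at up to 0.096 and 0.173 without PD30 replicate 1. HSPA4L, an HSP110 chaperone, rose from 11.6, 10.7 and 10.2 CPM to 65.7, 73.2 and 72.5 CPM (2.70 ± 0.111, adjusted p = 6.38e-06), while 11 of the 14 heat shock genes did not pass. BAG3 and HSPB1 were the others that rose. Of the immediate-early list, FOSL1 (FRA1) rose from 55.9, 55.1 and 78.2 CPM to 125, 124 and 181 CPM (1.18 ± 0.188, adjusted p = 0.00715), IER2 rose and SPRED1 fell among 18 genes, and with the replicate block 5 rose and 5 fell. Of 13 NF-κB response genes 0 passed in edgeR's quasi-likelihood test, 3 had an unadjusted p under 0.05, 1 passed in DESeq2 and 3 with the replicate block. Of 19 interferon response genes ISG15 rose (adjusted p = 0.0179, and 0.0753 without PD30 replicate 1) and IFIT2 fell, and 3 rose and 3 fell with the replicate block. Of 24 cholesterol genes TM7SF2 rose in edgeR's quasi-likelihood test (3 genes in DESeq2 and with the replicate block; adjusted p = 0.0496, and up to 0.180 without N+PD30 replicate 2). The 10 reference genes had a median of 0.28, above that of all genes. Of the lineage markers COL1A1 and KRT8 passed the adjusted p, at log2 fold changes of 0.77 and 0.71. Each no longer passed in 4 of the 6 fits without 1 library, at up to 0.105 and 0.0759 without PD30 replicate 1.

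Set beside the same drug in cycling cells, the response of arrested cells held fewer called genes. Nutlin against DMSO called 3277 of 15766 genes (20.8%), 1950 of them higher (12.4%) and 1327 lower (8.42%). These libraries share no sample with the arrested ones. Of the genes called higher, 277 were called in both settings, which is 57.7% of the arrested and 14.2% of the cycling calls. Of those called lower, 62 were, which is 82.7% of the arrested and 4.67% of the cycling calls. Across the 14841 genes tested in both, the log2 fold changes had a Pearson correlation of 0.627 and a Spearman correlation of 0.592, as a description over genes that are not independent.

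The difference of the responses (N+PD30 over PD30 minus Nutlin over DMSO, as an interaction term over 12 libraries) passed both thresholds in 1647 of 16113 genes (10.2%), positive in 851 (5.28%) and negative in 796 (4.94%). Of the 796 negative differences, 747 were in genes that Nutlin alone raised past both thresholds, and 209 were in genes too low to be tested in the arrested cells. Of the 851 positive ones, 622 were in genes that Nutlin alone lowered past both thresholds and 45 in genes called higher in the arrested cells. The difference is computed from the same libraries as these calls. Such overlaps, here and below, are thus in part built in and only describe where the differences lie. After thinning every library to the smallest total, 703 were positive and 489 negative.

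Among the p53 lists the response was not uniformly smaller in arrested cells. By the adjusted p the difference was positive in 23 and negative in 14 of 105 members, where 12.8% and 7.03% of all tested genes had such differences. Past both thresholds it was positive in 14 and negative in 5 members, the latter a share near the 4.94% of all genes. The median log2 fold change was 1.2 under PD0332991 and 1.01 without it. MDM2 reached 29528, 22276 and 19945 CPM with Nutlin alone, and its response was smaller under PD0332991 (difference -0.68 ± 0.205; edgeR's quasi-likelihood test, adjusted p = 0.0326). That difference no longer passed the adjusted p in 7 of 12 fits without 1 library, at up to 0.0829 without PD30 replicate 3. CDKN1A rose by 4.34 under PD0332991 and by 4.56 without it, a difference of -0.17 that did not pass (95% interval -0.62 to 0.28, adjusted p = 0.603), and its level with Nutlin was 3993 to 4429.8 CPM without PD0332991 against 2065 to 2740.0 CPM with it. BBC3 had a difference of 0.53 (95% interval -0.53 to 1.58, adjusted p = 0.489), TP53I3 of -0.24 (-0.74 to 0.26, adjusted p = 0.510), BAX of -0.27 (-0.56 to 0.01, adjusted p = 0.167) and XPC of -0.04 (-0.33 to 0.24, adjusted p = 0.851). Of these 5 genes XPC alone had an interval that stayed within 0.5 on the log2 scale.

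Other p53 targets had a larger fold change in arrested cells. BTG2 read 15, 16.4 and 13.4 CPM in DMSO and 93, 72.3 and 81.4 CPM in Nutlin, so that both its starting level and its rise differed (difference of the responses 2.16 ± 0.207; edgeR's quasi-likelihood test, adjusted p = 8.79e-05). TRAF4 overlapped between DMSO (31.6 to 39.4 CPM) and Nutlin (36.4 to 47.2 CPM) and did not pass there, which differed from its rise under PD0332991 (difference 1.96 ± 0.184, adjusted p = 8.79e-05). E2F7, PCNA and SERTAD1 likewise did not pass in cycling cells (adjusted p = 0.105, 0.121 and 0.346) and had differences of 3.39 ± 0.595, 1.43 ± 0.144 and 1.84 ± 0.297 (adjusted p = 0.00175, 1.03e-04 and 0.00108). With both drugs the level of E2F7 was 19.5 to 74.3 CPM, beside 74.5 to 107 CPM in DMSO and 46.3 to 73.7 CPM in Nutlin. That of PCNA was 97.1 to 107 CPM, beside 252 to 305 CPM in DMSO and 291 to 336 CPM in Nutlin. The other positive differences in the lists past both thresholds were those of ACER2, PHLDA3, RBM38, APAF1, PMAIP1, POLH, DDIT4, KITLG and SCO2, from 1.02 for POLH to 4.31 for SCO2. Of these DDIT4, RBM38 and SCO2 lost the call in 8, 4 and 9 of 12 fits without 1 library. Their adjusted p reached 0.104 without DMSO replicate 2, 0.0654 without PD30 replicate 1 and 0.341 without DMSO replicate 1. DDIT4 also lost it after thinning (0.0628). PMAIP1 did not pass in arrested cells, and on Nutlin alone it fell (log2 fold change -0.83; edgeR's quasi-likelihood test, adjusted p = 1.22e-04). SCO2 was too low to be tested in cycling cells. With both drugs the means of POLH, KITLG and APAF1 were 109, 14.6 and 42.4 CPM, below the 171, 49.4 and 52.7 CPM of Nutlin alone. Those of BTG2, TRAF4, SERTAD1, ACER2, PHLDA3, RBM38, PMAIP1, DDIT4 and SCO2 were above it.

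The 5 members with a negative difference past both thresholds were TNFRSF10A, VMP1, EPS8L2, VWCE and GDF15. TNFRSF10A rose from 0.42, 0.208 and 0.408 CPM to 2.44, 1.99 and 3.24 CPM in cycling cells, and its lack of a rise under PD0332991 differed from that (difference -2.93 ± 0.455; edgeR's quasi-likelihood test, adjusted p = 8.60e-04). VMP1 rose from 183, 199 and 209 CPM to 470.0, 389 and 401 CPM in cycling cells (difference -1.04 ± 0.127, adjusted p = 2.57e-04). EPS8L2, VWCE and GDF15 rose in both settings but by less under PD0332991 (differences -2.10, -1.28 and -1.27, adjusted p = 0.00349, 0.0145 and 0.0348). The call of GDF15 was lost in 8 of 12 fits without 1 library, at an adjusted p of up to 0.0841 without Nutlin replicate 2, and that of VWCE after thinning (0.414). For these 3 genes the PD30 level was above the DMSO level, at 69.9 to 107 CPM against 29.4 to 49.8 CPM in GDF15.

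**Figure D5:**
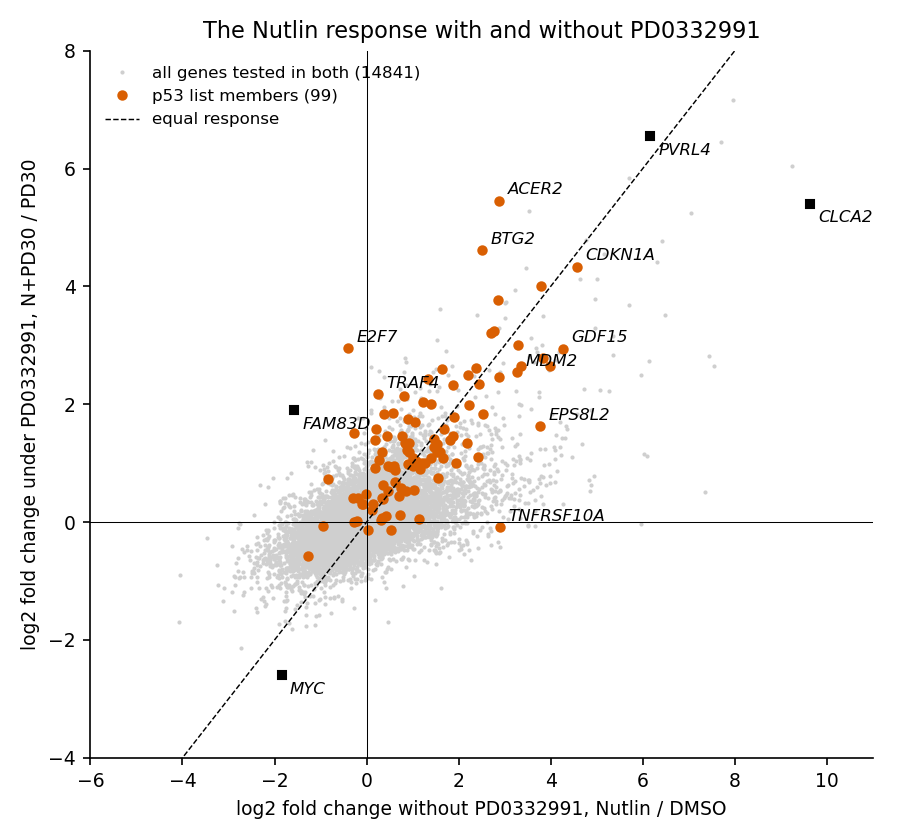
Log2 fold change of N+PD30 over PD30 (vertical axis) against that of Nutlin over DMSO (horizontal axis) for the 14841 genes tested in both, with the p53 list members in orange and a dashed line of equal response. E2F7, TRAF4, BTG2 and ACER2 lie above the line, at differences of 1.96 to 3.39, and TNFRSF10A, EPS8L2 and GDF15 lie below it, at -2.93 to -1.27.

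Among genes with a mean of at least 1 CPM over the 12 libraries, the 10 most negative differences past both thresholds were in genes that Nutlin alone switched on from near 0 and that stayed near 0 under PD0332991. TRIM55, a muscle ubiquitin ligase gene, had 491, 577 and 332 reads in the Nutlin libraries and between 2 and 9 reads in every N+PD30 library, and KRT78, a keratin gene, 7.15 to 11 CPM against 0.206 to 0.497 CPM (differences -6.76 and -5.39; edgeR's quasi-likelihood test, adjusted p = 8.90e-04 and 7.13e-04). ZNF605, SHISA7, KIAA1045, ZNF300P1, DNAH12, FBXW10, SLFN14 and SLC2A5 shared this pattern, at no more than 0.514 CPM in any N+PD30 library. The fitted differences of such low genes depend on few reads, and those of KRT78, ZNF605, ZNF300P1 and FBXW10 missed the threshold after thinning (adjusted p = 0.103, 0.0558, 0.0641 and 0.422). PVRL4 was unlike them, since it rose from near 0 in both settings (difference 0.44, 95% interval -0.44 to 1.31, adjusted p = 0.488).

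Of the 10 most positive differences past both thresholds by the same limit on the mean, all but that of E2F7 were in genes that Nutlin alone lowered. FAM83D, a spindle protein gene, fell from between 107 and 112 CPM to between 31.3 and 43.9 CPM in cycling cells and rose from 1.6, 1.54 and 1.29 CPM to 6.21, 5.76 and 4.61 CPM in arrested ones (difference 3.51 ± 0.227; edgeR's quasi-likelihood test, adjusted p = 4.68e-06). TRIB3, a pseudokinase gene of the ATF4 pathway, fell from 38.6, 63.1 and 35.1 CPM to 7.93, 10.5 and 14.2 CPM in cycling cells and did not pass in arrested ones, at 79, 96.8 and 164 CPM against 89.1, 200.3 and 285 CPM (difference 2.83 ± 0.545, adjusted p = 0.00308). FAM111B, ZNF613, ZFP37, SPATA2L, FRAT1, C1orf135 and C12orf68 had differences of 2.74 to 3.40, with no call in N+PD30 against PD30, where FAM111B was too low to be tested. Of the S phase list, 26 of 44 members had a positive difference by the adjusted p, where 12.8% of all genes did, and 37 of 44 had fallen in cycling cells, where 28.0% of all genes did. In the immediate-early list 8 of 19 were positive, among them FOSL1 (1.2 ± 0.288, adjusted p = 0.0107), which read 115, 114 and 151 CPM in DMSO and 100.5, 114 and 160.2 CPM in Nutlin.

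The depth of the libraries differed between the groups, so the comparison was repeated with every library thinned to the smallest total. Then 425 genes were called higher and 55 lower, and 58 p53 list members were called higher with a median of 1.22. CDKN1A, MDM2, BBC3 and TP53I3 were called higher after thinning as well. Of the genes described above, CDC25A, CCNE1, ZIK1, MIR17HG, SDF2L1 and BAI1 no longer passed the adjusted p, at 0.0915, 0.0741, 0.0795, 0.0528, 0.0523 and 0.05.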

How the data were processed

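RNA of SJSA cells was made into TruSeq libraries and sequenced as single 50-base reads. As stated in the methods and labels, the authors aligned reads by TopHat and Bowtie2 on build hg19, took counts per gene from HTSeq 0.6.0 with the reverse strand setting, and deposited these counts as whole numbers. Their fold changes and p-values from DESeq2, which the tables also hold, were not used. Columns were joined by row over 23368 rows, 28 of which have names turned into dates, and 6 other libraries of the series were not analysed here. Library totals ran from 12704845 to 35963015 counts.

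The counts were tested with edgeR 4.0.16 (R 4.3.3), using filterByExpr, TMM and the quasi-likelihood test on N+PD30 against PD30 and on Nutlin against DMSO, each with 6 libraries, and on the difference of the responses over 12. Fold changes are given with their standard error, intervals at 95%. Genes were named by rule: those followed by the study, the 10 largest rises and falls among called genes with separate groups and at least 1 CPM, members of the p53 lists, up to 4 members of each other list, and the 10 most positive and most negative differences. MIR34A, MIR17HG, PTCHD4, SIGLEC14, C17orf89 and the further list members named were chosen after their values were seen. Some genes that the rule names are not reported here. Members and lists were chosen with earlier results of these data known. The main fits had no pairing, and the replicate block, an alternative, paired libraries by replicate number. Deviations of libraries with the same number correlated at 0.170, 0.294 and 0.567 between PD30 and N+PD30. Between DMSO and Nutlin they correlated at -0.185, 0.21 and 0.18. In both comparisons the same-number library was the best match for replicate 3 alone, so pairing by number is not established. The replicate block, other scalings, no filter, DESeq2 1.42.0, thinning, a fit over 12 libraries and leaving out each library were the alternatives. The scripts were tested on simulated data. Sequences came from RefSeq (GRCh38.p14), positions of genes from a GRCh37 annotation.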

Additional observations from a re-analysis of the deposited data

Results flagged for a closer look

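Genes are collected here because the Nutlin response differed between arrested and cycling cells by the test of the difference itself (N+PD30 over PD30 minus Nutlin over DMSO, edgeR's quasi-likelihood test, adjusted p under 0.05 and beyond 1 on the log2 scale). Every value is such a difference in log2. Among p53 targets in arrest and apoptosis the differences were BTG2 2.16, PHLDA3 1.37, E2F7 3.39, RBM38 1.32, SERTAD1 1.84, APAF1 1.07, PMAIP1 1.6, TRAF4 1.96 and TNFRSF10A -2.93. In the targets of DNA repair, metabolism and autophagy they were POLH 1.02, PCNA 1.43, ACER2 2.62, DDIT4 1.51, SCO2 4.31 and VMP1 -1.04. In secreted and surface proteins they were KITLG 1.14, EPS8L2 -2.1, GDF15 -1.27 and VWCE -1.28. Cell cycle and signalling genes had CDC25A 1.41, TYMS 1.57, CCNE1 1.4, E2F5 1.84 and FOSL1 1.2, and the genes named for their change or promoter site had CLCA2 -4.17, PPARGC1B -1.15, MIR17HG 2.45 and PTCHD4 -1.61. Among genes with a mean of at least 1 CPM over the 12 libraries, the most positive differences beside that of E2F7 were FAM83D 3.51, FAM111B 3.4, ZNF613 3.25, ZFP37 3.21, SPATA2L 3, TRIB3 2.83, FRAT1 2.81, C1orf135 2.76 and C12orf68 2.74. The most negative by the same limit were TRIM55 -6.76, ZNF605 -6.64, SHISA7 -6.61, KIAA1045 -5.93, ZNF300P1 -5.58, DNAH12 -5.42, KRT78 -5.39, FBXW10 -5.09, SLFN14 -4.95 and SLC2A5 -4.9. Beside the losses given above, the call of CLCA2 was lost in 4 of 12 fits without 1 library (adjusted p of up to 0.0684 without DMSO replicate 1) and after thinning (0.102), that of FAM111B without N+PD30 replicate 3 (0.0555), that of MIR17HG without N+PD30 replicate 2 (0.0639), that of ZNF605 in 4 fits (up to 0.937 without PD30 replicate 1), that of ZNF300P1 without PD30 replicate 2 (0.142) and that of FBXW10 without PD30 replicate 3 (0.0758). At 3 libraries a group no library was tested as an outlier.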

How the results depend on the processing

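The number of genes called in arrested cells moved with the setting. With the adjusted p alone 1333 genes were higher and 850 lower, and 2060 differences of the responses were positive. With total counts as the scaling 120 genes were called lower and the median of the p53 lists was 1.104, and without a filter that median was 1.161. After thinning, 489 differences were negative. Leaving out 1 library gave 284 to 669 genes called higher and 34 to 125 called lower, with 46, 35 and 125 called lower without N+PD30 replicates 1, 2 and 3 and 34 and 46 without PD30 replicates 1 and 3, and a p53 median of 1.155 to 1.249. The replicate block called 536 genes higher and 104 lower, with 60 p53 members and a median of 1.192, and 895 positive and 905 negative differences. No named gene that passed the adjusted p in the main fit lost it with the block. More p53 members rose by the adjusted p: 12 rather than 11 in cell cycle arrest and 16 rather than 14 in apoptosis. In metabolism 19 rather than 18 rose, and in secretion, surface and signalling 24 rather than 22. DESeq2 called 480 higher and 69 lower. CDK4, near 0, turned to -0.0713 with total counts and -0.002044 without a filter and ran from -0.03506 to 0.0692 over the fits without 1 library, and RB1 turned to -0.04077 with total counts and ran from -0.03562 to 0.2198. Neither passed any of these tests, and the cause was not tested. Alternative values were followed only for named genes that passed the adjusted p in the main fit and for the genes the study followed. Of these fold changes 1520 values kept side and direction, 108 no longer passed, 1 newly passed and 6, those of CDK4 and RB1, turned. Differences of the responses were followed only where they passed in the main fit, and 1095 values kept side and direction and 92 no longer passed. Other named genes were not followed, so these totals cannot show how many of them would newly pass. N+PD30 replicate 1 holds the fewest counts, so genes at a few reads are the least certain.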

Other observations

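ATF4 and NUPR1, a pair of stress response genes, had differences of opposite sign. In the ATF4 and unfolded protein response list 5 of 18 members had a positive difference by the adjusted p, 1 a negative one and 12 did not pass. Over all tested genes 12.8% had a positive and 7.03% a negative difference. ATF4, a transcription factor, had means of 222 CPM in DMSO, 111 CPM in Nutlin, 304 CPM in PD30 and 391 CPM in N+PD30, so it fell on Nutlin in cycling cells (log2 fold change -0.96) and did not pass in arrested ones (adjusted p = 0.170), and the responses differed by 1.37 ± 0.222 (edgeR's quasi-likelihood test, adjusted p = 0.00109). NUPR1 rose in both settings, by 2.29 in cycling and by 0.90 in arrested cells, with means of 23.6 CPM in DMSO and 121 CPM in PD30 (difference -1.34 ± 0.229, adjusted p = 0.00150).

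Replication and mitosis genes with a positive difference were mostly at a low level in the arrested cells before Nutlin. The replication initiation gene MCM10 had means of 79.5 CPM in DMSO, 19.1 CPM in Nutlin, 0.580 CPM in PD30 and 0.594 CPM in N+PD30 (difference 2.06 ± 0.278, adjusted p = 3.93e-04), and HJURP, a chaperone of the centromeric histone, 131, 33.9, 1.43 and 1.15 CPM (difference 1.70 ± 0.243, adjusted p = 5.38e-04). PLK1, a mitotic kinase, had 164, 62.8, 3.66 and 4.15 CPM (difference 1.59 ± 0.213, adjusted p = 3.79e-04). None of MCM10, HJURP and PLK1 passed in arrested cells, at adjusted p values of 0.998, 0.484 and 0.480. These genes were chosen after their values were seen.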
